A study of Mus musculus with 14 samples.

Results

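The Notch pathway genes described here are 10 genes of a table of 35271 genes, taken by name: the receptors Notch1, Notch2, Notch3 and Notch4, the ligands Jag1 and Dll4, the nuclear effector Rbpj and the target genes Hes1, Hey1 and Heyl. All 10 were found, each as 1 row, and were read across 14 single cells labelled as glomerular mesangial cells. The cells came from 1 wild-type male mouse of 8 weeks, called C57BL/6 in the series text and C56BL/6 in the sample labels. Beads and a magnet were used to pull out the glomeruli, which enzymes then broke up, and a Fluidigm C1 instrument held, lysed and made cDNA from each cell in its own chamber. The labels give 1 group and no treatment, so no groups were compared. The animal is the replicate, so no p-value or standard error was computed and every value describes these cells only. Intervals on shares of cells are the exception, and they describe the drawing of cells from this mouse.

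In Notch signalling a ligand on one cell binds a receptor on its neighbour, an ADAM protease and then gamma-secretase cut the receptor, and the freed intracellular part joins RBPJ on DNA and turns on genes of the Hes and Hey families. In vessels of the kidney and elsewhere, Notch3 is known from mural cells (smooth muscle cells and pericytes), whereas Notch1, Notch4, Dll4 and Hey1 are known from endothelium. Notch signalling is also needed for mesangial cells to form in the developing glomerulus.

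Levels are RPKM, reads scaled to gene length and to the reads of the cell, as deposited. A gene was called detected in a cell at an RPKM of at least 1, and a second limit of 10 is given beside it. The cells had 6.60 M to 23.8 M reads, recovered from the steps of the values, and 1770 to 5277 genes detected, with GL_M_36 (5277) and GL_M_47 (4842) above the other 12 cells (1770 to 3419). Of a list of 9 mesangial genes, 6 to 8 were at 10 or more in each cell, with Gata3, Serpine2 and Ptn in all 14 and Tbx18 listed at 0 in all 14. The rest varied. Itga8 was at 0.65 in GL_M_51, and Pdgfrb at 0.759 in GL_M_29 and 0.493 in GL_M_30. In GL_M_6, Fhl2 was at 0.558 and Des was listed at 0. Agtr1a was lowest in GL_M_55, at 1.07. Of 13 endothelial genes, 10 were at 10 or more in GL_M_30 and 0 to 5 in the other cells. Of 12 podocyte genes, 5 were at 10 or more in GL_M_55 and 0 to 2 elsewhere.

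Promoter stretches are shown for 5 of the genes: Notch2, Notch3 and Jag1, seen in many cells, Rbpj, seen in 3, and Notch4, seen in 0. Notch1, seen in 2 cells, and Dll4, seen in 0, are not printed, but their motif counts are given below. No link of sequence to level was tested. The stretches are from RefSeq on GRCm38.p6, which had entries for 7 of the 10 genes and none for Hes1, Hey1 and Heyl. Each is the part of the 250 bases before the RefSeq start that no GENCODE M21 exon covers, 5′ to 3′ on the gene's strand. Capitals mark GGGCGG on either strand (a GC box, the motif of Sp1), or, in Rbpj, TGGGAA on either strand, the core motif of RBPJ.
Notch2 (chr3:98013288-98013526, plus strand): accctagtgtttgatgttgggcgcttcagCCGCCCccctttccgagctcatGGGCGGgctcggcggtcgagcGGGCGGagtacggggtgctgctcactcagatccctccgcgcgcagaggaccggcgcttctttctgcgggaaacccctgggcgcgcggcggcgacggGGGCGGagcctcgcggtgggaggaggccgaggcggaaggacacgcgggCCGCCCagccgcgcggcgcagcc
Notch3 (chr17:32166891-32167140, minus strand): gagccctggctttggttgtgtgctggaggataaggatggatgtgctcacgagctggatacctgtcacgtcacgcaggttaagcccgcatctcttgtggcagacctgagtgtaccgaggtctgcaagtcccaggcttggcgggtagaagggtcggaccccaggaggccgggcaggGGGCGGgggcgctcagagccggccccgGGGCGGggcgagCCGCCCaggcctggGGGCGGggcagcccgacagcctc
Jag1 (chr2:137116645-137116770, minus strand): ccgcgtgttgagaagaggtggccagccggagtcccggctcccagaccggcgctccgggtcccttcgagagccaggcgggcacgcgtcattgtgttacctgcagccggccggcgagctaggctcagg
Notch4 (chr17:34564045-34564267, plus strand): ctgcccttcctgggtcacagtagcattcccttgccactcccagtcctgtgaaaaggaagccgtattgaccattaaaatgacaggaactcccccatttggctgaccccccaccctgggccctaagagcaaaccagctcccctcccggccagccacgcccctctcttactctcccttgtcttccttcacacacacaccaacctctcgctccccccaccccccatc
Rbpj (chr5:53590096-53590213, plus strand): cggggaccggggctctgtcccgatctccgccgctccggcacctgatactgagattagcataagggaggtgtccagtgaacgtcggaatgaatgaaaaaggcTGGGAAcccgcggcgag
Over the whole 250 bases before the RefSeq start, GGGCGG occurred 5 times for Notch1, 5 for Notch2, 4 for Notch3, 2 for Dll4 and 0 times for Jag1, Notch4 and Rbpj. It was present in 32.7% of 32851 RefSeq promoter windows of that length. The windows of Notch1 (chr2:26503823-26504072) and Rbpj lie inside the GENCODE M21 bounds of these genes, given below, and not before them. TGGGAA occurred 2 times before the upstream RefSeq start of Rbpj, 1 of them in the stretch shown, and the other of these also lies in the overlapping window before its second start. It occurred 0 times before the other 6 genes, against 21.6% of all windows. These matches are letters in a window and say nothing of binding.

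Of the 10 genes, 7 were detected in some cell and the same number reached 10 or more in some cell. The background is 41.8% of 21396 protein-coding genes (29.2% of all 35271) for an RPKM of at least 1 in some cell, and 33.9% of protein-coding genes (22.3% of all) for 10 or more. Hes1 was detected in the most cells, 10 of 14 (71.4%, exact 95% Clopper-Pearson interval 41.9% to 91.6%). Notch2 and Jag1 followed with 8 cells each (57.1%, 28.9% to 82.3%), then Notch3 with 6 (42.9%, 17.7% to 71.1%), Rbpj with 3, and Notch1 and Heyl with 2 each. At 10 or more Hes1 had no lead: Hes1, Notch2 and Jag1 were each so in 7 cells, Notch3 in 4, Notch1 and Heyl in 2 and Rbpj in 1. These intervals describe only the drawing of 14 cells from 1 mouse, taken as independent draws, and no order of the genes is tested by them. Notch4, Dll4 and Hey1 were below 1 in all 14 cells, and for each the same kind of interval around 0 of 14 cells reaches 23.2%, for values at the detection limit in cells of this mouse. Each cell had 1 to 6 of the 10 genes, with a median of 2.

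**Figure D1:**
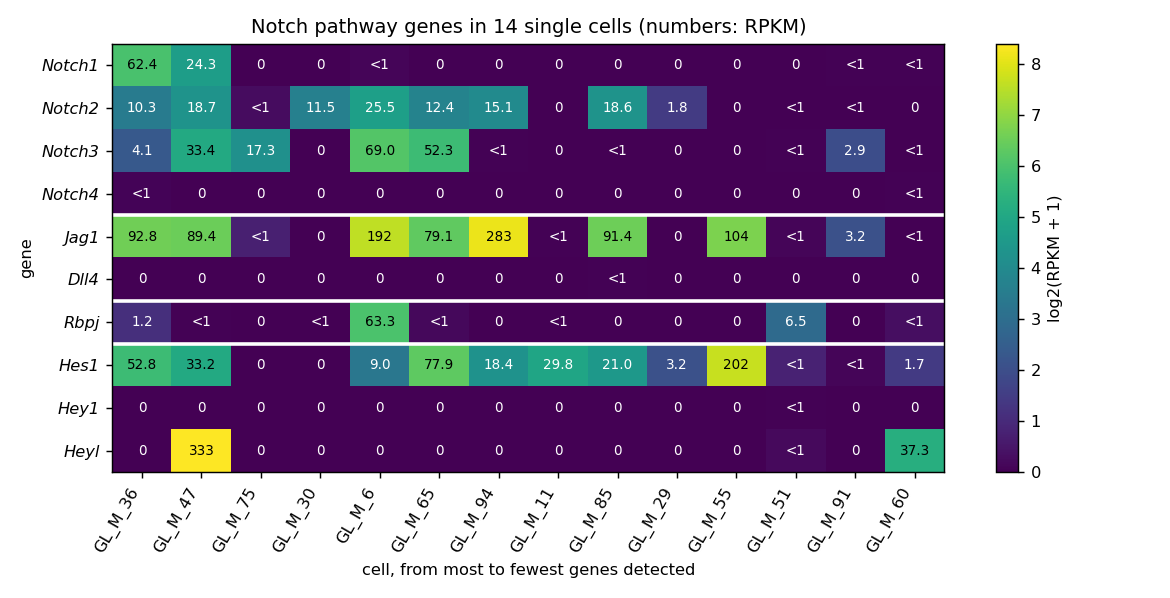
RPKM of the 10 genes (rows) in the 14 cells (columns, ordered by genes detected), with colour giving log2(RPKM + 1), numbers giving RPKM and "<1" standing for values above 0 and below 1. Notch2, Notch3, Jag1 and Hes1 fill most of the coloured squares, Notch1 only GL_M_36 and GL_M_47, and the rows of Notch4, Dll4 and Hey1 are dark throughout.

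The values split into well-read and nearly empty. Of the 140 values, 75 were listed at 0 and 26 lay above 0 but below 1, and these 26 rested on 1 to 32 reads with a median of 1.5. The 30 values of 10 or more rested on 101 to 7699 reads, and only 9 values lay between. Over the 7 genes that reached 10 somewhere, 30.6% of values were 10 or more, 9.18% were from 1 to below 10 and 37.8% were 0. Over all 7864 such genes in the table the shares were 23.6%, 9.60% and 43.3%. Of 8 genes in common use by most cell types, 3 were also listed at 0 somewhere, Hprt in 8 cells, Polr2a in 3 and Rpl13a in 1. A 0 is therefore given as listed at 0 and not as silence of the gene.

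Among the receptors, Notch2 was the most widespread. This receptor is on chromosome 3 (98013527 to 98150361, plus strand). Its RPKM was 25.5 in GL_M_6, 18.7 in GL_M_47, 18.6 in GL_M_85, 15.1 in GL_M_94, 12.4 in GL_M_65, 11.5 in GL_M_30, 10.3 in GL_M_36 and 1.76 in GL_M_29. The 7 cells at 10 or more thus lay within a narrow band, each on 1122 to 2461 reads. In the other 6 cells it was 0.216 in GL_M_75 (15 reads), about 0.01 in GL_M_51 and GL_M_91 (2 reads each) and listed at 0 in GL_M_11, GL_M_55 and GL_M_60. These 6 cells included the 3 with the most reads (GL_M_60, GL_M_51 and GL_M_91, 17.7 M to 23.8 M) and the 2 with the fewest (GL_M_75 and GL_M_55, 6.60 M and 7.59 M). The part of depth in the Notch2 values was not tested.

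Notch3, the mural cell receptor, was in fewer cells but reached higher. Its gene is on chromosome 17 (32120820 to 32166852, minus strand). The RPKM was 69.0 in GL_M_6, 52.3 in GL_M_65, 33.4 in GL_M_47, 17.3 in GL_M_75, 4.08 in GL_M_36 and 2.92 in GL_M_91. Elsewhere it had 1 to 4 reads in GL_M_51, GL_M_60, GL_M_85 and GL_M_94 and was listed at 0 in GL_M_11, GL_M_29, GL_M_30 and GL_M_55. Notch3 and Notch2 overlapped in 4 cells (GL_M_6, GL_M_36, GL_M_47 and GL_M_65). Notch2 was the only receptor detected in GL_M_29, GL_M_30, GL_M_85 and GL_M_94, and Notch3 the only one in GL_M_75 and GL_M_91.

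Markers of mural cells were read beside Notch3. The summed RPKM of 7 pericyte genes ran from 199 to 756 in the 6 cells with Notch3 detected and from 0.675 to 1042 in the other 8. Kcnj8, Higd1b and Anpep of that list were at 0 in all 14 cells. Rgs5 was at 149 to 749 in the Notch3 cells but at 1031 in GL_M_30 and 893 in GL_M_55, where Notch3 was listed at 0. Mcam was highest in GL_M_60 (455) and Cspg4 in GL_M_85 (33.2), with 1 to 2 reads of Notch3 in these cells. Smooth muscle genes summed to 0 to 76.5 in the Notch3 cells and 0 to 109 in the rest, with Smtn the only one of 7 genes to reach 10 anywhere. The ranges overlap, and the part of these cell types in the Notch3 values was not tested.

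Notch1, on chromosome 2 (26457903 to 26516663, minus strand), was detected in GL_M_36 at 62.4 (1272 reads) and in GL_M_47 at 24.3 (462 reads). It had 1 read in each of GL_M_6, GL_M_60 and GL_M_91 and was listed at 0 in the other 9 cells. Both Notch1 cells also held Notch2 and Notch3, and they are the pair with the most genes detected; the part of that in the Notch1 values was not tested. Notch4 (chromosome 17, 34564268 to 34588503, plus strand) had 1 read in GL_M_36 and 1 in GL_M_60. Genes on the opposite strand overlap exons of Notch1 (Gm13568, at most 0.179, and 0610009E02Rik, listed at 0) and Notch3 (Gm17276, listed at 0), and none was detected in any cell.

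The level of Notch1 beside the other receptors depends on the length used per gene, whereas the order of the summed levels given below does not. At genes with more than 1 annotated transcript, 55.8% of low values came out as whole reads when the length was the mean over the gene's GENCODE M21 transcripts, against 11.9% with the longest transcript, 13.7% with the median and 4.81% with merged exons. Where that mean was used, a gene annotated with many short transcripts is raised against others, but it was not used for every gene. Notch1 has 11 annotated transcripts with a mean of 1519.3 bases, whereas its longest coding transcript has 9488, and the length behind its values is 1519. For Notch2 and Notch3 that length is 10506 and 8044, which is not their M21 mean (6198 and 3126) but is close to their longest coding transcripts of 10500 and 8016. Rbpj (5452, with a mean of 2873.3 over 12 transcripts and a longest coding transcript of 5485) and Hey1 (2203, against 1253 and 2423) also depart from the M21 mean. Per kilobase of the longest coding transcript, Notch1 was 6.25-fold lower, at 9.995 in GL_M_36 and 3.889 in GL_M_47. There GL_M_36 had Notch2 at 10.35 and Notch3 at 4.09, so that the top receptor of this cell was Notch1 on the deposited scale (81.2% of the receptor sum) and Notch2, by a small margin, on the other (42.4% against 40.9% for Notch1). Which transcripts the cells made is not known from values per gene.

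Among the 10 cells with a receptor detected, Notch3 was the highest receptor in 5, Notch2 in 4 and Notch1 in 1 on the deposited scale, and the counts were 5, 5 and 0 on the longest coding transcript. Summed over cells, the RPKM was 179.2 for Notch3, 114.1 for Notch2 and 86.9 for Notch1, and on the longest coding transcript 179.7, 114.2 and 13.9. The receptor-free cells by this limit were GL_M_11, GL_M_51, GL_M_55 and GL_M_60.

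**Figure D2:**
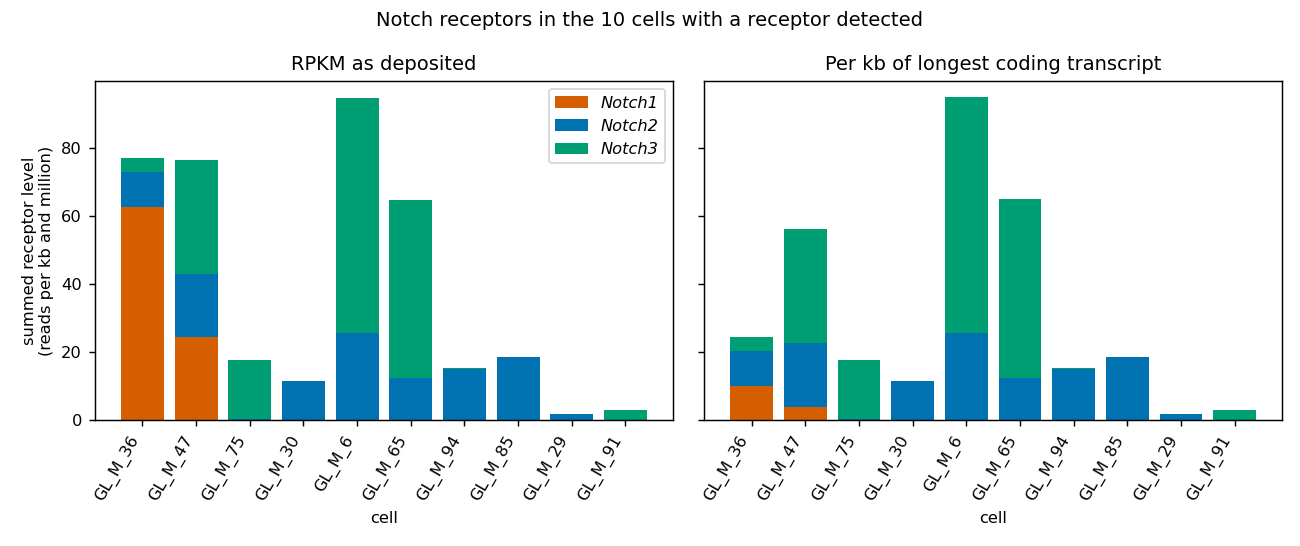
Stacked levels of Notch1, Notch2 and Notch3 (y axis, RPKM) in the 10 cells with a receptor detected (x axis), as deposited on the left and per kilobase of the longest coding transcript on the right. The Notch1 part of GL_M_36 shrinks from 62.4 to 9.995 and that of GL_M_47 from 24.3 to 3.889, while the Notch2 and Notch3 parts hardly move.

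Of the ligands, Jag1 was the member with the highest summed level and Dll4 was nearly absent from the reads. Jag1, on chromosome 2 (137081456 to 137116644, minus strand), encodes jagged 1, a membrane ligand of Notch receptors. Its RPKM was 283 in GL_M_94, 192 in GL_M_6, 104 in GL_M_55, 92.8 in GL_M_36, 91.4 in GL_M_85, 89.4 in GL_M_47 and 79.1 in GL_M_65, each on 2413 to 7685 reads. It was 3.23 in GL_M_91 and 0.685 in GL_M_75, had 1 to 5 reads in GL_M_11, GL_M_51 and GL_M_60, and was listed at 0 in GL_M_29 and GL_M_30. No cell lay between 3.23 and 79.1, so the 7 high cells stand apart from the rest. Sparse middle values are not particular to Jag1, as 9.60% of values were from 1 to below 10 over all 7864 genes that reached 10 somewhere. Per kilobase of its longest coding transcript Jag1 was 1.59-fold lower, at 49.88 to 178.5 in the 7 cells.

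Dll4, the delta-like ligand of sprouting endothelium (chromosome 2, 119325784 to 119335962, plus strand), had a single read, in GL_M_85. Its exons overlap those of Gm14207, a noncoding gene on the opposite strand, which was detected in 5 cells. No source used here says whether the counting used strand, so reads in the shared part cannot be assigned. Of the runs of 50 bases in the annotated transcripts of Dll4, 4.33% are shared with Gm14207. GL_M_30, the cell with 10 of 13 endothelial genes at 10 or more, had Notch1, Notch4, Dll4, Hey1, Jag1 and Hes1 all listed at 0, and Notch2 at 11.5.

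Notch2 and Jag1 were at 10 or more in largely the same cells. Each was so in 7 cells, and 6 cells were common to both (GL_M_6, GL_M_36, GL_M_47, GL_M_65, GL_M_85 and GL_M_94), with GL_M_30 high for Notch2 alone and GL_M_55 for Jag1 alone. Over the 14 cells Pearson's r of log2(RPKM + 1) was 0.68 and Spearman's rho 0.47. The number of genes detected had an r of 0.56 and a rho of 0.60 with Notch2, and 0.43 and 0.27 with Jag1. Its part in the shared cells was not tested. The promoter stretches printed above differ in the GC box, found 5 times before Notch2 and 0 times before Jag1. The part of the GC box in the shared cells was not tested. A receptor and a ligand were detected together in 7 cells, a receptor without a ligand in 3 (GL_M_29, GL_M_30 and GL_M_75), and a ligand without a receptor in GL_M_55.

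Rbpj, the DNA-binding protein through which the cut receptors act, was detected in only 3 cells. The gene is on chromosome 5 (53466152 to 53657362, plus strand). Its RPKM was 63.3 in GL_M_6 (2786 reads), 6.503 in GL_M_51 (675 reads) and 1.203 in GL_M_36 (88 reads). In GL_M_60 it had 32 reads, in GL_M_11, GL_M_30, GL_M_47 and GL_M_65 it had 1 to 6, and in the other 6 cells it was listed at 0. Of the runs of 50 bases in its annotated transcripts, 10.6% also occur in transcripts of other genes (204 genes), so reads there could be assigned elsewhere or dropped. The pseudogenes Rbpj-ps1 and Rbpj-ps3 were listed at 0 in all 14 cells.

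Hes1, a basic helix-loop-helix repressor and the best known Notch target, was the most widely detected of the 10 genes at the limit of 1. At 10 or more it was in 7 cells, as were Notch2 and Jag1. The limit of 1 takes fewer reads for Hes1, with a length of 715 bases, than for Notch2, with 10506. The Hes1 gene lies on chromosome 16 (30064384 to 30067796, plus strand). The RPKM was 202 in GL_M_55, 77.9 in GL_M_65, 52.8 in GL_M_36, 33.2 in GL_M_47, 29.8 in GL_M_11, 21.01 in GL_M_85, 18.4 in GL_M_94, 9.01 in GL_M_6, 3.18 in GL_M_29 and 1.703 in GL_M_60. These rest on 21 to 1099 reads, over a length of 715 bases. It had 10 reads in GL_M_51 and 1 in GL_M_91 and was listed at 0 in GL_M_30 and GL_M_75. On its longest coding transcript Hes1 was 2.05-fold lower, at 98.59 in GL_M_55, and GL_M_60 was then below 1, at 0.8295.

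The cells with Jag1 at 10 or more all had Hes1 detected. In these 7 cells Hes1 was at 9.01 to 202, and in the 7 others it was at 0 to 29.8 and detected in 3. The ranges overlap through GL_M_11, which had 1 read of Jag1 but more Hes1 (29.8) than GL_M_6, GL_M_85 and GL_M_94. Pearson's r of log2(RPKM + 1) over the 14 cells was 0.72 and Spearman's rho 0.55, and r was 0.68 without GL_M_36 and GL_M_47. Jag1 with Hes1 is 1 of 6 pairs among Notch2, Notch3, Jag1 and Hes1, with the highest r but not the highest rho, which was that of Notch2 with Notch3 (0.60, r 0.43). Notch3 with Jag1 had an r of 0.42 and a rho of 0.51, Notch2 with Hes1 0.32 and 0.13, and Notch3 with Hes1 0.15 and 0.11. The cells share 1 animal and differ in depth and in genes detected. The latter had an r of 0.56 with Notch2, 0.45 with Notch3, 0.43 with Jag1 and 0.38 with Hes1. The highest Hes1 cell, GL_M_55, also had the most podocyte genes, with a summed RPKM of 2178 for the 12 listed against 0.427 to 516 in the other cells, and their part in its Hes1 value was not tested.

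**Figure D3:**
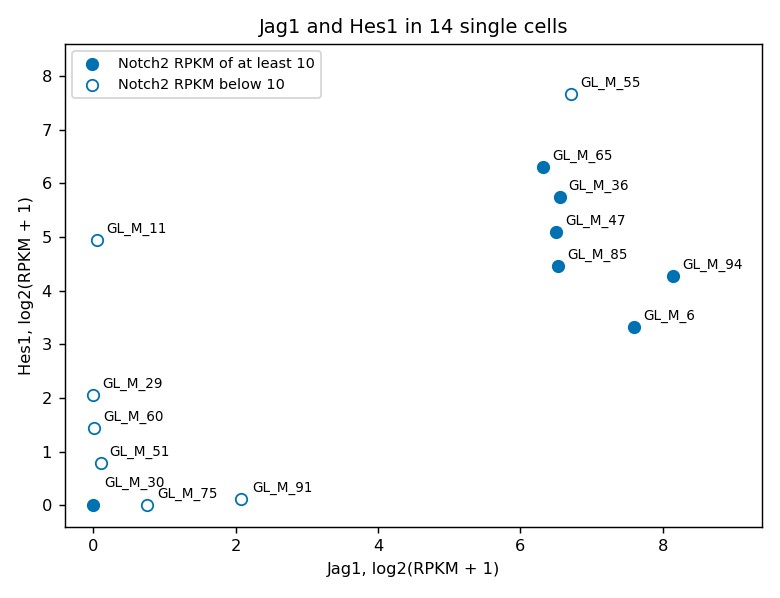
Hes1 against Jag1, both as log2(RPKM + 1), with 1 point per cell, filled where Notch2 was at 10 or more. The 7 cells on the right all have Hes1 at 9.01 or more, and 6 of them are filled, while GL_M_11 stands alone at the upper left.

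Heyl and Hey1, hairy-related repressors that Notch induces in vascular cells, differed in reach. Heyl (chromosome 4, 123233556 to 123249875, plus strand) had an RPKM of 333 in GL_M_47 (7699 reads) and 37.3 in GL_M_60 (1639 reads), 6 reads in GL_M_51 and 0 in the other 11 cells. Its level in GL_M_47 was the highest single value of the 10 genes, 333 on the deposited scale, but was 135.5 on its longest coding transcript, below Jag1 in GL_M_94 (178.5). Hey1 (chromosome 3, 8663359 to 8667256, minus strand) had 1 read, in GL_M_51.

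Receptors and targets were not always found in the same cell. A receptor, Jag1 and Hes1 were detected together in 6 cells, and with Rbpj as well in 2 of them, GL_M_6 and GL_M_36. A target was detected without a receptor in GL_M_11, GL_M_55 and GL_M_60, the last with Heyl at 37.3 and at most 2 reads of any receptor. A receptor was detected without a target in GL_M_30, GL_M_75 and GL_M_91. A target was thus found in 7 of the 10 cells with a receptor and in 3 of the 4 without. These are counts of few cells from 1 mouse at the limit of 1, and no likeness or difference between them was tested. Of the 10 cells with Hes1 detected, 8 had Rbpj below 1 and 4 of these had Rbpj listed at 0. The limit of 1 takes more reads for Rbpj, with a length of 5452 bases, than for Hes1, with 715. In GL_M_60, 1 of the 8, Hes1 was called detected on 29 reads and Rbpj was not on 32.

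Of 62 other genes of the pathway, 46 were detected in some cell and 28 in 4 or more cells, against 41.8% and 18.6% of protein-coding genes. These counts and the values that follow are on the deposited scale, with lengths per gene that were not checked one by one. Ligands and targets were the roles with the fewest genes detected. Of 5 other ligands only Dll1 was detected, at 10.6 in GL_M_36, while Jag2, Dll3, Dlk1 and Dlk2 were below 1 in all cells. Of 8 other targets Hes6 was detected at 104 in GL_M_75 and Hes7 at 1.85 in GL_M_29, and Hes2, Hes3, Hes5, Hey2, Helt and Nrarp in 0 cells.

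The proteases that cut the receptors were more widespread. Furin, which cleaves the receptor during its transport to the surface, was detected in 9 cells with up to 89.8, Adam17 in 7 with up to 27.6, and Adam10, which makes the cut that ligand binding triggers, in 5 with up to 443. In gamma-secretase, the catalytic subunit Psen2 was detected in 12 cells and was at 10 or more in 11, with a median of 161 and up to 1043 in GL_M_29. Ncstn (nicastrin) was detected in 6 cells, Psenen in 4, Aph1a in 3, Aph1b in 1 and Aph1c in 0. Psen2 was below 1 in GL_M_60 and GL_M_91.

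Enzymes that add sugars to the receptors were uneven. Poglut1 was detected in 8 cells and reached 1371 in GL_M_60, and Pofut1 was detected in 2 with at most 1.84. The Fringe genes, which change how a receptor responds to its ligands, were nearly unseen. Mfng was at 170 in GL_M_30 and listed at 0 in the other 13 cells, Rfng was detected in GL_M_29 alone at 5.71, and Lfng was listed at 0 in all 14. The single Mfng cell is the one with the most endothelial genes, and the part of that was not tested.

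Of 13 genes of ligand uptake and receptor trafficking 10 were detected. Mib1, the ubiquitin ligase that lets ligands be taken up and so become active, was detected in 7 cells and was at 10 or more in 6, at 284 in GL_M_55, 230 in GL_M_85, 184 in GL_M_47, 114 in GL_M_6, 25.9 in GL_M_65 and 10.7 in GL_M_36. All 6 are cells with Jag1 at 10 or more, and the 1 further Jag1 cell, GL_M_94, had Mib1 at 0.28. The remaining cell with Mib1 detected, GL_M_30 at 1.46, had Jag1 listed at 0. This pairing of Mib1 with Jag1 was picked from the list after the values were seen and is given as a description. Numb, an inhibitor of Notch, was detected in 5 cells with 225 in GL_M_6 and 122 in GL_M_75, and Itch, a ubiquitin ligase that acts on the receptor, in 7 with up to 177 in GL_M_36. Neurl1b reached 344 in GL_M_30 and was detected in 4 cells, and Neurl3 was detected in 6 with at most 23.6. Of the Deltex genes Dtx3 was at 118 in GL_M_36 and Dtx2 at 63.7 in GL_M_6 alone, and Dtx3l was detected in 4 cells with up to 25.9. Mib2 and Numbl were each detected in 2 cells, and Neurl1a, Dtx1 and Dtx4 were below 1 in all cells.

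Partners of the receptor on DNA were found for both activation and repression. Of 10 coactivators and turnover factors 9 were detected, with Snw1 in 8 cells, Maml2 in 7, Ep300 and Kat2b in 6, and Maml3 in 5, while Maml1 was below 1 in all cells. Maml2 was highest at 950 in GL_M_29, and Kat2b at 2242 in GL_M_94. Fbxw7, which marks the freed receptor for breakdown, was detected in 4 cells with up to 324 in GL_M_75, Cdk8 in 5 with up to 769 in the same cell, Kat2a in 2 and Ccnc in 1. All 12 corepressors were detected somewhere, with Ncor1 and Kdm5a in 11 cells each and medians of 35.7 and 5.09. Hdac2 and Cir1 were detected in 5 cells each, Hdac1, Ctbp2 and Tle1 in 4, Ctbp1 and Tle3 in 3, Spen and Tle4 in 2 and Tle2 in 1. The highest of these was Ctbp1 at 750 in GL_M_29.

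**Figure D4:**
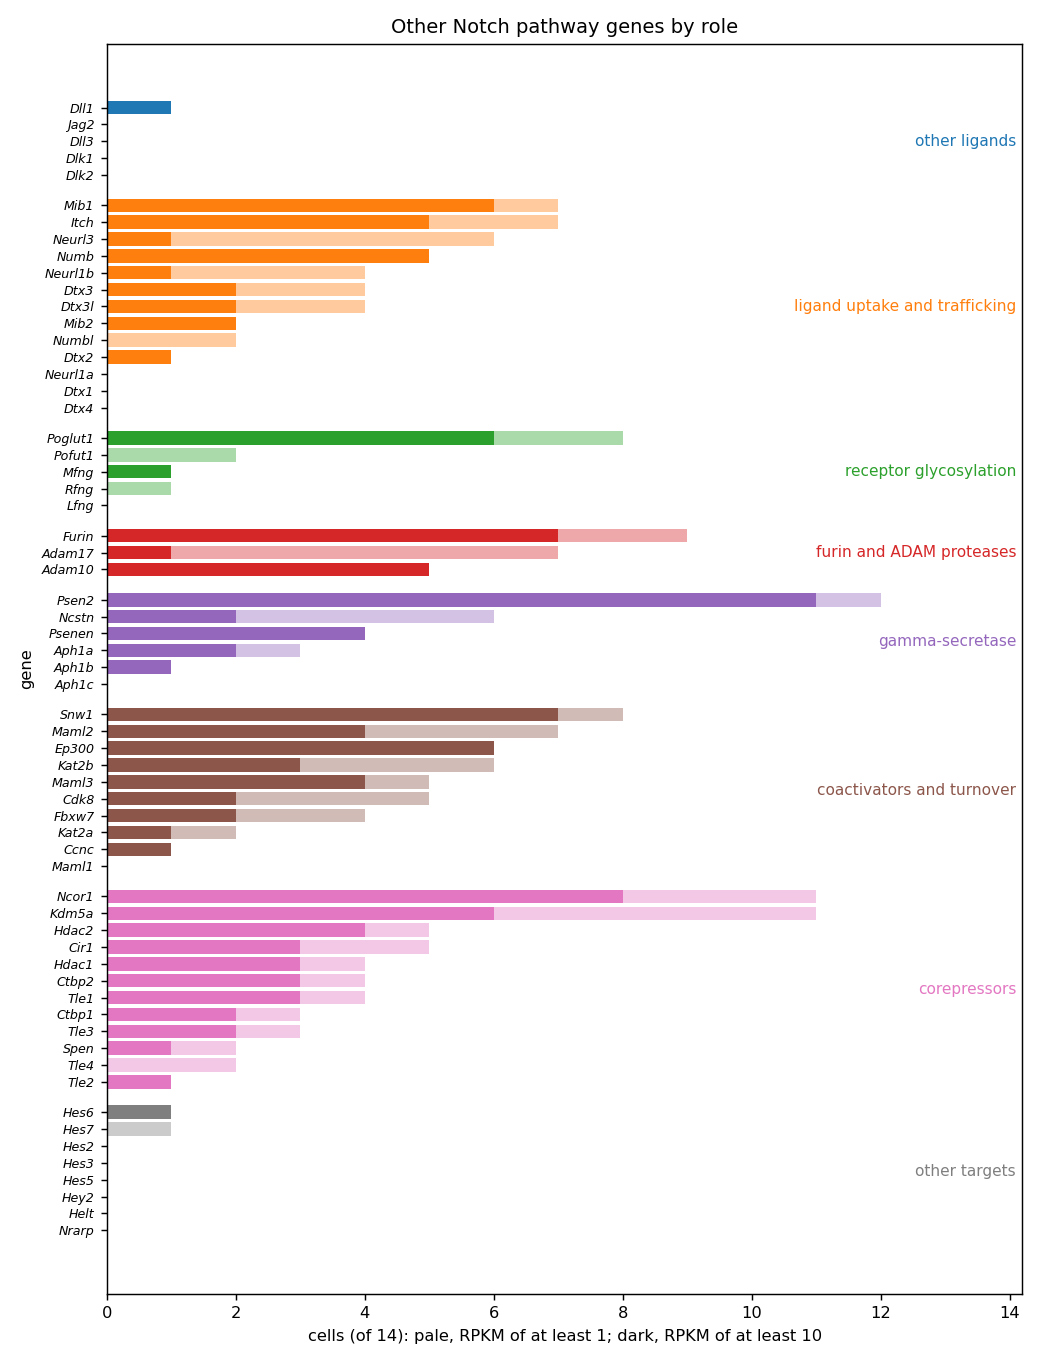
Number of the 14 cells (x axis) in which each of 62 other pathway genes (y axis, grouped by role) had an RPKM of at least 1 (pale) and of at least 10 (dark). Psen2, Ncor1 and Kdm5a reach 12, 11 and 11 cells, while other ligands and other targets reach at most 1.

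The number of other pathway genes per cell, 8 to 27 with a median of 12.5, followed the number of all genes detected, with Pearson's r of 0.94 and Spearman's rho of 0.94 over the 14 cells, which share the deposited scale and 1 animal. The 10 genes themselves followed it less evenly, with r of 0.71, rho of 0.40 and r of 0.17 without GL_M_36 and GL_M_47. Both counts are part of all genes detected, and a count over 10 genes is coarser than one over 62. The difference between them is therefore not read as a property of the 10 genes. GL_M_75, the third cell by genes detected at 3419, had 19 other pathway genes but 1 of the 10, Notch3, whereas GL_M_6 with 2994 genes had 5 of the 10.

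**Figure D5:**
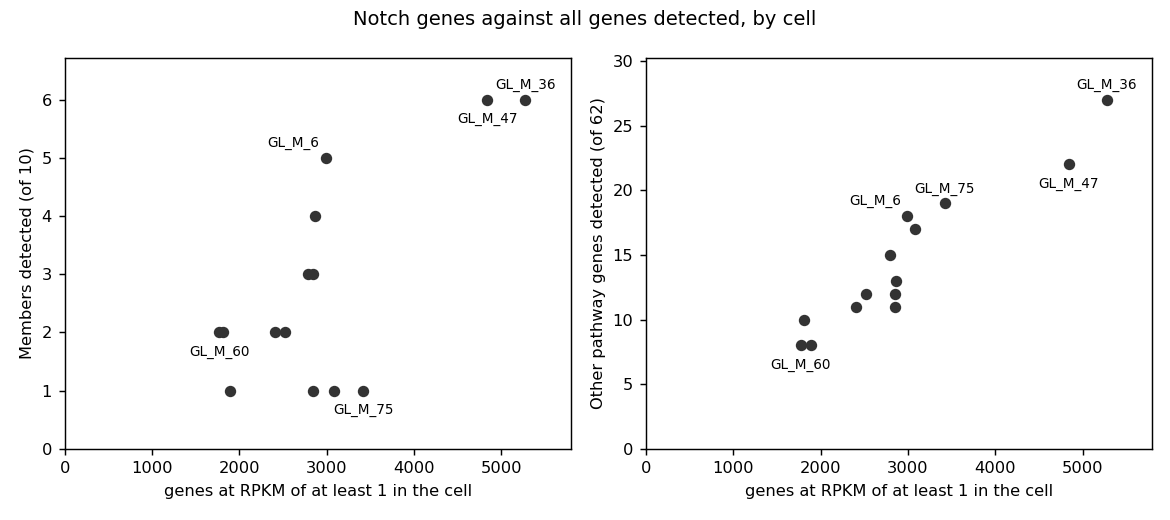
Number of the 10 genes detected (left) and of the 62 other pathway genes detected (right) against the number of all genes detected in that cell, 1 point per cell. On the right the points lie along a line, and on the left cells with 2788 to 3082 genes range from 1 to 5.

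Of the 10 genes, 4 were at 10 or more in at least 4 cells, and for each the 3 genes with the most similar pattern among 4345 genes were found by Pearson's r of log2(RPKM + 1) over the 14 cells. For Notch2 these were Ccdc124 (0.88), Tuba1b (0.86) and Lamp2 (0.85), and for Notch3 they were Gm4791 (0.94), Virma (0.92) and Kat6b (0.90). For Jag1 they were Ppfibp1 (0.89), 2010315B03Rik (0.88) and Csnk2a2 (0.84), and for Hes1 they were Cox17 (0.84), B430306N03Rik (0.84) and Mga (0.80). These are the highest of 4345 correlations over 14 cells, and such maxima are large by construction. Ppfibp1 for Jag1 and Cox17 for Hes1 stayed among the first 3 with Spearman's rho, with a pseudocount of 0.1 and without GL_M_30 or GL_M_55, and the other 10 genes did not in at least 1 of these settings.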

How the data were processed

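RPKM values per gene for 14 single cells were deposited by the authors in 1 table, with 1 column per cell and no column of no sample. Per the submitters' processing notes the tools were TopHat2 2.0.12 and HTSeq 0.6.1 and the build was mm10. Which annotation release, strand setting, rule for multiply mapped reads and cell filter were used is not stated there. Symbols came from GENCODE M21 on GRCm38, which matched 34488 of 35271 gene IDs. The 10 genes, the list of 62 other pathway genes and the marker lists were chosen with earlier results of these data known. Results that are not reported here were left out of that list and its counts. All genes of the list are named in the report, with all 10 genes and the 3 most similar genes of each of those at 10 or more in 4 or more cells.

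Read totals were recovered at 14953 genes with 1 annotated transcript, where the commonest value of RPKM times length stands for 1 read. Of values below 50 reads, 84.7% to 89.7% per cell were whole within 0.02 reads. The length behind each gene is the M21 mean transcript length if it gave whole reads, otherwise the smallest length that did, so reads are estimates. On simulated reads 3 of 3 totals were recovered among 5000 genes. For the most similar genes, a copy of a gene's own row with little noise was planted, and 200 of 200 ranked first among 4345 genes. Such near copies were bound to rank first, so this checks the code and not the similar genes named above. At these depths 3 reads of one of the 10 genes equal an RPKM of 0.012 (Notch2, GL_M_60) to 0.636 (Hes1, GL_M_75). Intervals on shares of cells describe the drawing of cells from 1 mouse only, and read numbers are not numbers of molecules, as the labels mention no molecular identifiers. Python 3.11.15 with numpy 2.4.6, pandas 2.3.3, scipy 1.17.1 and matplotlib 3.10.9 was used.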

Additional observations from a re-analysis of the deposited data

How the results depend on the processing

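Of 52 values recomputed under other settings, 45 stayed within 1.5 times the reported count or within 1 SD over cells. Some of these could not move. GL_M_55 had every receptor listed at 0, so the receptor results were bound to stay the same without it. With any value above 0 counted as detected, the median number of the 10 genes per cell was 5 in place of 2, which adds values of few reads. Without GL_M_36 and GL_M_47 the number of cells in which Notch1 was the highest receptor was 0 and the summed RPKM of Notch3, still the highest, was 141.6. Notch1 was also the highest receptor in 0 cells on the longest coding transcript, a setting chosen after seeing the data. Of the 12 most similar genes, 3 were kept with Spearman's rho, 7 without GL_M_30 and 7 without GL_M_55. The cells with a receptor and a ligand numbered 6 at limits of 5 and 10, 10 for any value above 0 and 5 without GL_M_36 and GL_M_47. A mean log2 level was planned for genes above 0 in every cell, and 0 of the 10 genes met this. The number of cells and the single animal limit the shares, and 1 read limits the lowest values.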

Other observations

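Gm14207, the noncoding gene that overlaps Dll4 on the opposite strand, was at an RPKM of 973 in GL_M_60, 32.9 in GL_M_47, 17.9 in GL_M_36, 2.35 in GL_M_55 and 1.18 in GL_M_65, and Dll4 was listed at 0 in these 5 cells. It was chosen after its values were seen. GL_M_60 and GL_M_47, its highest cells, are also the cells with Heyl detected.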
